A study of Mus musculus with 6 samples.

Results

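The genes described here are 10 receptors for circulating hormones and serotonin, taken by symbol from the 54838 genes of the deposited hippocampal count table. They are the cytokine-type receptors for prolactin, leptin and growth hormone (Prlr, Lepr, Ghr), the receptor tyrosine kinases for insulin and insulin-like growth factor (Insr, Igf1r), the nuclear receptors for thyroid hormone, oestrogen and mineralocorticoids (Thra, Thrb, Esr1, Nr3c2) and the serotonin receptor Htr2c. The list sets receptors known to be abundant in the choroid plexus beside receptors known from neurons. It was selected on the receptors' known roles and with the CPM and log2 fold changes between the genotypes in these libraries already known, so that difference is given for the 10 genes as a description, and no p-value is given for any of them. How many of them passed a threshold is printed only to stand beside the share of all genes that did.

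RNA was sequenced from single hippocampi of female mice aged 7 months, 3 wild-type and 3 FVB/NJ-Tg(Orai1)Ibd, the latter carrying a human ORAI1 coding sequence in a Thy1 cassette, a promoter used to drive transgenes in neurons. ORAI1 is the plasma membrane pore of store-operated calcium entry. The labels name 1 transgenic line, so an effect of the insertion site and an effect of the transgene cannot be told apart, and p-values measure the spread between these mice. Library totals ran from 37414241 to 52497799 counts. Orai1 stood at 7.16 to 8.08 CPM (counts scaled to a common library total) in wild-type mice and 313 to 331 CPM in transgenic mice, and Thy1 at 621 to 675 and 3572 to 4369 CPM. These counts do not separate transcripts of the transgene and its cassette from those of the mouse's own genes. The hippocampal principal neuron list, headed by Camk2a (wild-type mean 3621 ± 106 CPM, transgenic mean 3716 ± 311 CPM, SD, n = 3), summed to 5111 to 5379 CPM and 5169 to 5927 CPM, and no marker of any list was at 0 in any library. The 22 choroid plexus epithelium markers had a sum of 3972 to 6171 CPM in the wild-type libraries but of 592 to 899 CPM in the transgenic ones, and 21 of the 22 fell, with a median log2 fold change of -2.36. In bulk tissue, fewer cells of a type and less RNA per cell cannot be told apart.

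Cytokine-type receptors have no kinase of their own and signal through Janus kinases bound to them, which phosphorylate STAT transcription factors. Insulin and insulin-like growth factor receptors are kinases themselves and act through docking proteins and lipid kinase signalling, while nuclear receptors bind DNA and change transcription when their lipid-soluble ligand arrives. Htr2c is coupled to a G protein that activates phospholipase C. In the brain, prolactin, leptin and serotonin receptors are well known from the choroid plexus, the epithelium in the ventricles that makes cerebrospinal fluid, where Prlr and Lepr have been studied as entry routes for their hormones and where Htr2c binding is dense. Hippocampal neurons are known for mineralocorticoid and thyroid hormone receptors.

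The regions upstream of Prlr and Htr2c are shown because these 2 genes had the largest differences between genotypes and because Prlr has several annotated start sites that a count per gene does not separate. Each stretch holds the 250 bases before a RefSeq start on GRCm38.p6, plus strand, 5′ to 3′. Capitals mark TTCNNNGAA, the core of a STAT binding site (a palindrome, so both strands are covered), or AGGTCA, a half-site of nuclear receptors, on either strand. The 2 motifs did not overlap in these stretches.
Prlr, start 1, chr15:10176988-10177237: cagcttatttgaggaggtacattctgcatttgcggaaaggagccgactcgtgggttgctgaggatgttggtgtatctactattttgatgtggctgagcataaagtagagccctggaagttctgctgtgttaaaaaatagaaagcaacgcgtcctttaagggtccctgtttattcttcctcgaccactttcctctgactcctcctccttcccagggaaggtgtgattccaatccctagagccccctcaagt
Prlr, start 2, chr15:10223656-10223905: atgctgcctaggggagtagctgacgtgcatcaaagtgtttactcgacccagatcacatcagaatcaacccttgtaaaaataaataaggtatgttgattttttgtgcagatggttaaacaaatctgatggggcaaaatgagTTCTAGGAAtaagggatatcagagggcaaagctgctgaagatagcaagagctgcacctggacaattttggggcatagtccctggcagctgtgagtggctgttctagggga
Prlr, start 3, chr15:10293401-10293650: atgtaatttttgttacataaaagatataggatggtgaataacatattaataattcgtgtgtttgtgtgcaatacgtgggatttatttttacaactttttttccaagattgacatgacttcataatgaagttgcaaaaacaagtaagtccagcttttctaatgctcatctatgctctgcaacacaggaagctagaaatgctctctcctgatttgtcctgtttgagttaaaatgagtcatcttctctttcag
Htr2c, chrX:146962263-146962512: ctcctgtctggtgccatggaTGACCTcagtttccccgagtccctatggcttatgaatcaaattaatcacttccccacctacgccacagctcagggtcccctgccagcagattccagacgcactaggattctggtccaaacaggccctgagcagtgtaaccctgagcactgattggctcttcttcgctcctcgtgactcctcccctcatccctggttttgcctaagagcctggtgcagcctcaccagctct
The STAT letters began 110 bases before the second Prlr start, and the half-site, read on the minus strand, 230 bases before the Htr2c start. RefSeq windows were at hand for 8 of the 10 genes, 14 windows in all, of which 2 held the STAT letters and 3 the half-site. Over 32817 windows of the same length, 7.01% held the STAT letters and 14.0% the half-site. A match gives letters in a window and is not evidence of binding.

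Per length of transcript (FPKM, a level scaled to the exonic length and the library total), the receptors spanned a 670-fold range in wild-type hippocampus. Thra, which encodes thyroid hormone receptor alpha, was the highest with a median of 170 FPKM, a value per gene that does not separate its transcript forms. The mineralocorticoid receptor gene Nr3c2 followed at 27.1 FPKM and Htr2c at 8.28 FPKM. Thrb (5.81 FPKM), Insr (5.75 FPKM) and Igf1r (5.51 FPKM) came next, and in this trio neighbours in the order overlapped between mice. Prlr had a median of 3.47 FPKM, close to the median of 3.77 FPKM over all tested genes. Lepr (1.47 FPKM) and Ghr (1.31 FPKM) overlapped each other, and Esr1, the oestrogen receptor alpha gene, was the lowest at 0.254 FPKM. The other neighbours in the order did not overlap. The order held when any 1 wild-type library was left out, whereas in CPM, which does not divide by length, 3 of the 10 receptors kept their place.

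**Figure D1:**
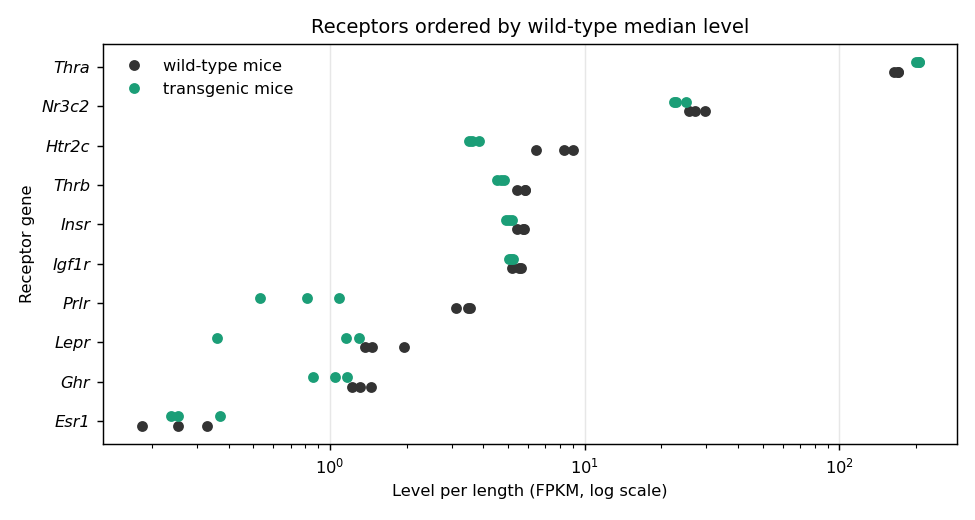
Level of each receptor in FPKM on a log axis, 1 point per mouse, with genes ordered by the wild-type median. Thra sits at 163 to 171 FPKM in wild-type mice and Esr1 at 0.182 to 0.330 FPKM, and Prlr and Htr2c show wild-type and transgenic points well apart.

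All 10 receptors passed the filter on low counts. Between genotypes the 3 wild-type and 3 transgenic values did not overlap for 8 of them, 7 lower and 1 higher in transgenic mice, beside 34.9% of the 19087 tested genes that did not overlap, 17.9% lower and 16.9% higher. In edgeR's quasi-likelihood fit over all tested genes, 4 of the 10 (3 lower, 1 higher) were past an adjusted p of 0.05, beside 7.10% of all tested genes, 3.10% higher and the rest lower. The median log2 fold change was -0.25 over the receptors and -0.010 over all tested genes. Because the receptors were chosen with this contrast known, these counts are no test of the receptors and nothing is read from them. When the fit carried a correction for a trend of fold change with transcript GC content, the count was 2 of the 10, beside 2.16% of all tested genes. It was also 2 when wild-type 1, wild-type 2, transgenic 2 or transgenic 3 was left out, beside 77, 94, 192 and 108 of all tested genes in those fits.

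**Figure D2:**
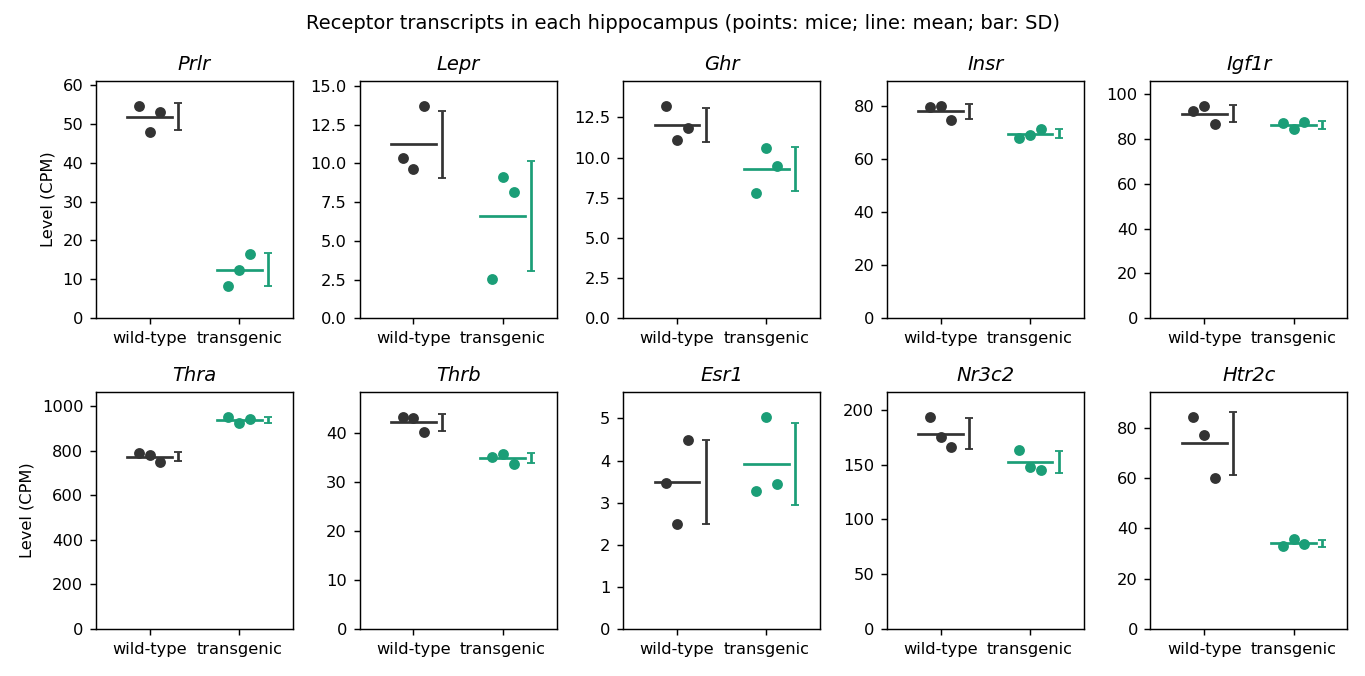
Level of each receptor in CPM, on axes from 0, with 1 point per mouse, a line at the mean of 3 mice and a bar of 1 SD. Prlr and Htr2c show the widest gaps between genotypes, Igf1r and Esr1 overlap, and Thra is the receptor whose transgenic points all lie above the wild-type points.

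Among the cytokine-type receptors, Prlr differed most. Prlr (ENSMUSG00000005268, chromosome 15, 10177238 to 10349180, plus strand, GRCm38) measured 54.5, 48.0 and 53.1 CPM in the 3 wild-type mice and 8.23, 12.5 and 16.6 CPM in the 3 transgenic mice. Every transgenic mouse lay far below every wild-type mouse, and the transgenic mean was 24.0% of the wild-type mean (12.4 ± 4.20 against 51.9 ± 3.41 CPM, SD, n = 3). The log2 fold change was -2.07 (SE 0.22), between -2.31 without transgenic 3 and -1.83 without transgenic 1. A predicted gene, Gm21973, shares 1.32% of Prlr's exonic bases on the same strand, where reads cannot be assigned to either gene. The leptin receptor gene was less even between mice. Lepr (ENSMUSG00000057722, chromosome 4, 101717404 to 101815352, plus strand) measured 10.4, 9.62 and 13.7 CPM in wild-type mice and 2.55, 9.12 and 8.15 CPM in transgenic mice. Transgenic 1 stood well below the other 5 libraries, and transgenic 2 lay just below wild-type 2. The log2 fold change was -0.77 (SE 0.40), and it was -0.38 without transgenic 1 and -1.07 without transgenic 2. Ghr (ENSMUSG00000055737, chromosome 15, 3317760 to 3583492, minus strand), the growth hormone receptor, measured 13.2, 11.1 and 11.8 CPM in wild-type mice and 7.83, 10.6 and 9.48 CPM in transgenic mice. Its groups did not overlap by a small margin, with a log2 fold change of -0.37 (SE 0.13), which was -0.22 with the GC correction and -0.26 without transgenic 1. Per length, Prlr exceeded Ghr 2.55-fold ± 0.10 in wild-type mice, and in transgenic mice the ratio was 0.784 ± 0.22 (SD, n = 3).

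The ligands of these receptors were uneven between mice within a genotype. Prl, which encodes prolactin, measured 16.1, 9.17 and 58.9 CPM in wild-type mice and 25.6, 99.3 and 11.4 CPM in transgenic mice. Gh, which encodes growth hormone, measured 4.93, 1.33 and 12.7 CPM and 8.32, 25.3 and 3.93 CPM. For both hormones wild-type 3 and transgenic 2 were the highest of their group, and the groups overlapped, with an edgeR adjusted p of 0.647 for Prl and 0.482 for Gh. With both of those libraries left out, an alternative chosen after seeing the data, the log2 fold change of Prlr was -2.04 against -2.07 with all libraries. In that fit, with fewer mice behind it, 1 of the 10 receptors was past the threshold, beside 143 of all tested genes. Nothing is read from this count. Lep, which encodes leptin, and the prolactin family gene Prl2c2 had 0 counts in every library, which allows up to 3 counts in each.

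Of the 36 tested genes of the cytokine receptor pathway other than the receptors above (Janus kinases, STATs, inhibitors and sister receptors), 1 rose, 1 fell and 34 did not pass, with a median log2 fold change of 0.084. Cish, a feedback inhibitor whose transcription STAT factors induce, fell from 5.33, 6.07 and 4.44 CPM in wild-type mice to 2.96, 3.46 and 3.23 CPM in transgenic mice (log2 fold change -0.72, SE 0.15, edgeR adjusted p = 0.035). No transgenic mouse reached the wild-type range of Cish. It did not pass when transgenic 1, wild-type 1, wild-type 2, transgenic 2 or transgenic 3 was left out, where its adjusted p reached 0.14. The count of the list was 1 without transgenic 1 and 0 without any one of the other 4, where 6 to 9 genes had an unadjusted p under 0.05.

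The receptor tyrosine kinases differed little. Insr (ENSMUSG00000005534, chromosome 8, 3122061 to 3279617, minus strand), the insulin receptor gene, measured 79.3, 79.6 and 74.6 CPM in wild-type mice and 67.9, 69.0 and 71.2 CPM in transgenic mice. The groups did not overlap, and the means of 77.8 ± 2.81 and 69.4 ± 1.65 CPM (SD, n = 3) lay further apart than either SD, with the transgenic mean at 89.1% of the wild-type mean (log2 fold change -0.17, SE 0.046). With the GC correction the log2 fold change was -0.10. Igf1r (ENSMUSG00000005533, chromosome 7, 67952827 to 68233668, plus strand), the insulin-like growth factor 1 receptor gene, measured 92.7, 94.6 and 86.9 CPM in wild-type mice and 87.3, 84.4 and 87.7 CPM in transgenic mice. Its groups overlapped, with a log2 fold change of -0.080 (SE 0.047). Insr and Igf1r stood at nearly the same level per length, with a ratio of 1.04 ± 0.010 in wild-type mice and 0.980 ± 0.026 in transgenic mice (SD, n = 3).

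In the insulin and IGF pathway 5 of 34 tested genes fell and none rose, with a median log2 fold change of -0.055. DESeq2 called 2 higher and 5 lower, the fit with a replicate block 1 higher and 3 lower, and the fit without a filter 1 higher and 6 lower. With the GC correction 3 passed, all lower. The ligand gene Ins2 had 58, 33 and 14 counts in wild-type mice and 7, 3 and 3 counts in transgenic mice (log2 fold change -2.83, SE 0.51, edgeR adjusted p = 0.028). At 1.11 CPM or less in every library, it lay close to the floor of detection. Igfbp2, a binding protein that holds insulin-like growth factors outside cells, fell from 103, 99.0 and 65.5 CPM to 31.2, 46.6 and 35.3 CPM (log2 fold change -1.25, SE 0.20, edgeR adjusted p = 0.022). Wild-type 3 was the lowest of its group and transgenic 2 the highest of its group, and the groups did not overlap. Igfbp4, another binding protein, fell by 0.36 on the log2 scale, and Gsk3b, a kinase restrained by insulin signalling, fell by 0.27. The ligand Igf1 measured 16.3, 15.3 and 16.3 CPM in wild-type mice and 9.30, 13.8 and 13.4 CPM in transgenic mice (log2 fold change -0.39, edgeR adjusted p = 0.131). For Igf1 the log2 fold change was -0.23 without transgenic 1 and -0.19 with the GC correction. Igf2 measured 18.7, 16.3 and 11.8 CPM and 3.30, 10.2 and 7.10 CPM (log2 fold change -1.20, edgeR adjusted p = 0.085). Both ligands were lower in every transgenic mouse than in any wild-type mouse without passing the threshold, and Ins1 had no counts. The number that passed was 0 without wild-type 1, wild-type 2 or transgenic 3, where 10, 12 and 11 genes had an unadjusted p under 0.05, and it was 1 without transgenic 2, 3 without wild-type 3 and 4 without transgenic 1.

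Both thyroid hormone receptor genes differed, in opposite directions. Thra (ENSMUSG00000058756, chromosome 11, 98740638 to 98769006, plus strand) measured 789, 784 and 750 CPM in wild-type mice and 951, 925 and 944 CPM in transgenic mice. Every transgenic mouse was above every wild-type mouse, and the transgenic mean was 121% of the wild-type mean (log2 fold change 0.28, SE 0.048). Thrb (ENSMUSG00000021779, chromosome 14, 17660261 to 18038090, plus strand) measured 43.2, 43.1 and 40.1 CPM in wild-type mice and 35.1, 35.6 and 33.6 CPM in transgenic mice, 82.6% of the wild-type mean (log2 fold change -0.28, SE 0.053). The ratio of Thra to Thrb per length was 29.3, 29.2 and 30.0 in wild-type mice and 43.5, 41.7 and 45.1 in transgenic mice. Thra had the highest GC content of the receptors' longest transcripts, 59.8%, while Thrb had 44.1% and Prlr, the lowest, 39.4%. With the GC correction the log2 fold changes were 0.17 for Thra and -0.17 for Thrb, of the same direction and smaller. Exons of Thra overlap Nr1d1 on the opposite strand over 5.70% of Thra's exonic bases, and the counting used strand.

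**Figure D3:**
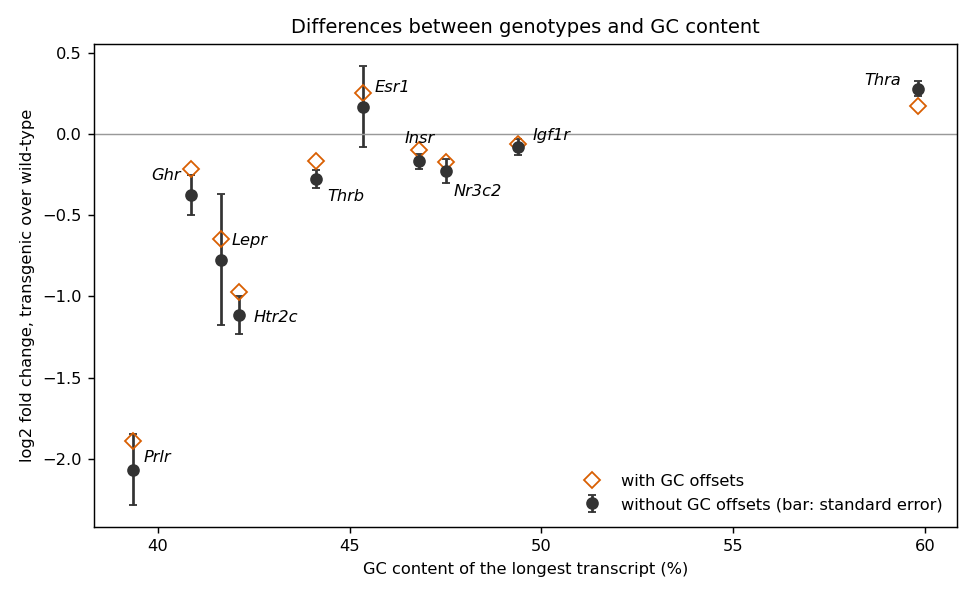
Log2 fold change (transgenic over wild-type) of each receptor against the GC content of its longest transcript in percent, with filled points and SE bars for the fit without GC correction and open diamonds for the fit with it. Prlr, Htr2c, Lepr and Ghr lie between 39% and 43% GC with negative values, and Thra, at 59.8% GC, has the highest value.

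Of the 31 tested genes that carry, activate or answer to thyroid hormone, 5 fell, 1 rose and 25 did not pass, with a median log2 fold change of -0.031. Ttr, the thyroid hormone carrier made by choroid plexus epithelium and also the first of the choroid plexus markers, fell from 3506, 3890 and 2042 CPM to 383, 179 and 301 CPM (log2 fold change -3.45, SE 0.34, edgeR adjusted p = 0.0047). Ttr passed in every fit with 1 library left out, with an adjusted p of at most 0.033. Slco1c1, a transporter of thyroid hormone, fell by 0.30 on the log2 scale, and the listed target genes Klf9, also known as a glucocorticoid target, and Dbp, also known as an output of the circadian clock, fell by 0.42 and 0.50, whereas Rxrb, a partner of the thyroid hormone receptors on DNA, rose by 0.20. The count was 2 without wild-type 1, wild-type 2, transgenic 2 or transgenic 3, and 3 with the GC correction.

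Of the steroid receptors, Nr3c2 was lower in transgenic mice and Esr1 overlapped. Nr3c2 (ENSMUSG00000031618, chromosome 8, 76899442 to 77245012, plus strand) measured 193, 175 and 166 CPM in wild-type mice and 164, 148 and 145 CPM in transgenic mice. The highest transgenic mouse lay just below the lowest wild-type mouse, with a log2 fold change of -0.23 (SE 0.072), which was -0.15 without wild-type 1. Gm10649 overlaps 3.82% of its exonic bases on the opposite strand. Esr1 (ENSMUSG00000019768, chromosome 10, 4611593 to 5005614, plus strand) measured 3.48, 2.49 and 4.49 CPM in wild-type mice and 3.28, 5.03 and 3.45 CPM in transgenic mice, from 105 to 192 counts per library. Its log2 fold change was 0.17 (SE 0.25), and its direction turned to -0.0074 without wild-type 2 and -0.026 without transgenic 2. The ratio of Nr3c2 to the glucocorticoid receptor gene Nr3c1 per length was 2.17 ± 0.17 in wild-type and 2.22 ± 0.099 in transgenic mice (SD, n = 3), and these ratios overlapped.

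Of 29 tested genes around the steroid receptors, 4 fell and 25 did not pass, with a median log2 fold change of 0.0025. Nr3c1 fell from 95.7, 90.4 and 96.0 CPM to 80.4, 77.9 and 77.1 CPM (log2 fold change -0.26, SE 0.045, edgeR adjusted p = 0.026). Pgr, the progesterone receptor gene, fell by 0.43, the orphan receptor gene Esrrg by 0.40 and the glucocorticoid-induced gene Tsc22d3 by 0.37 on the log2 scale. Genes of steroid synthesis and conversion and of the receptors' chaperones did not pass. With the GC correction no gene of the list passed in edgeR and 8 had an unadjusted p under 0.05, and with DESeq2, without the correction, 5 passed. None passed without wild-type 1, wild-type 2, transgenic 2 or transgenic 3, where 5 to 8 genes had an unadjusted p under 0.05, and 2 passed without wild-type 3.

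Htr2c (ENSMUSG00000041380, chromosome X, 146962513 to 147197277, plus strand), the serotonin receptor known from both choroid plexus and neurons, measured 84.4, 77.2 and 60.1 CPM in wild-type mice and 33.0, 35.8 and 33.7 CPM in transgenic mice. The transgenic mice were close together, at 46.3% of the wild-type mean, and wild-type 3 was the lowest of its group. The log2 fold change was -1.11 (SE 0.12), between -1.24 without wild-type 3 and -0.99 without wild-type 1, and -0.97 with the GC correction. Set beside its relative Htr2a per length, Htr2c was higher 2.93-fold ± 0.43 in wild-type mice and 1.97-fold ± 0.053 in transgenic mice (SD, n = 3).

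Of 31 tested genes of the serotonin pathway, 4 fell, 1 rose and 26 did not pass, with a median log2 fold change of -0.060. Htr2a fell from 14.8, 17.1 and 13.7 CPM to 10.4, 10.7 and 10.2 CPM (log2 fold change -0.54, SE 0.094, edgeR adjusted p = 0.026). Htr1f, a receptor that lowers cyclic AMP, fell from 2.45, 2.30 and 1.69 CPM to 1.16, 1.10 and 0.748 CPM (log2 fold change -1.10, SE 0.23, edgeR adjusted p = 0.037). Of the 4 listed phospholipase C beta genes, the enzymes downstream of Htr2c's G protein, Plcb1 and Plcb4 fell by 0.26 and 0.44 on the log2 scale, Plcb2 and Plcb3 had log2 fold changes of 0.26 and 0.087 and did not pass, and Arrb2, an arrestin that ends receptor signalling, rose by 0.26. The genes of serotonin synthesis, uptake and breakdown and the 3 RNA-editing enzyme genes did not pass. With the GC correction none of the 31 passed in edgeR and 7 had an unadjusted p under 0.05, while 8 passed in DESeq2 without it. None passed without wild-type 1, wild-type 2, transgenic 2 or transgenic 3, where 8 to 11 genes had an unadjusted p under 0.05, and 4 passed without transgenic 1.

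**Figure D4:**
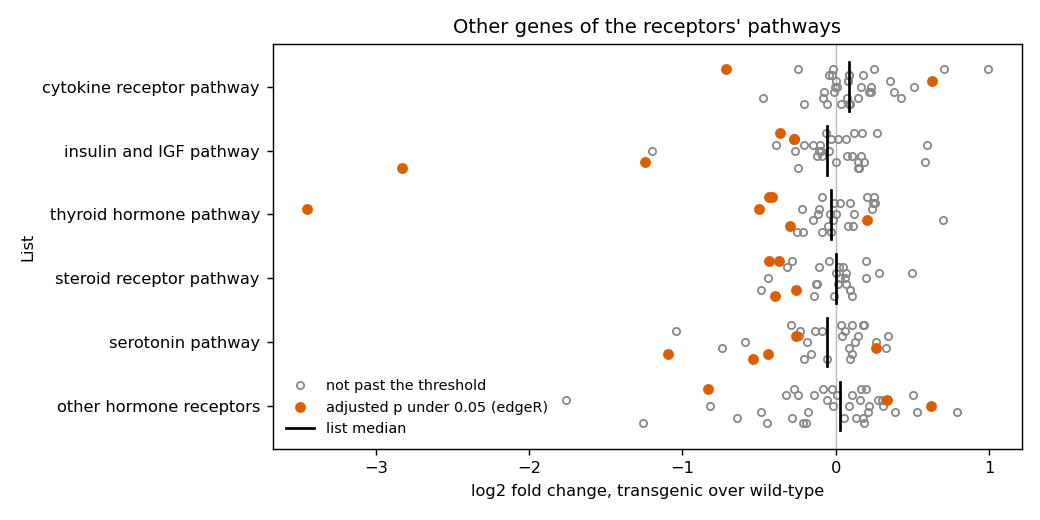
Log2 fold change (transgenic over wild-type) of each tested gene of the 6 pathway lists, 1 point per gene, with filled points for an edgeR adjusted p under 0.05 and a bar at each list's median. The medians lie between -0.060 and 0.084, and the far left points are Ttr (-3.45) and Ins2 (-2.83).

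Over the 6 lists together, 25 of 201 tested genes passed, 20 lower and 5 higher, which is 12.4% beside 7.10% of all tested genes. With the GC correction each of the 6 lists had fewer genes past the threshold, beside 412 of all tested genes. Without wild-type 1 or wild-type 2 only the thyroid hormone list had any, 2 genes in either fit, beside 77 and 94 of all tested genes. The lists were also drawn up with earlier results of these data known.

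Prlr, Lepr and Htr2c were among the 7 receptors lower in every transgenic mouse than in any wild-type mouse, as the choroid plexus marker sum was. The part of these markers in the receptors' differences was not tested. Beside Ttr, the markers with the highest wild-type level were Enpp2 (wild-type 1591 ± 174 CPM, transgenic 337 ± 41.2 CPM) and Kl (168 ± 29.0 and 34.4 ± 7.07 CPM, SD, n = 3). On the log2 scale, Prlr minus the mean of the 22 markers was 0.74, 0.53 and 1.11 in wild-type mice and 0.41, 1.35 and 1.64 in transgenic mice. This difference overlapped between genotypes. For Lepr it was -1.65, -1.79 and -0.84 in wild-type mice and -1.26, 0.90 and 0.62 in transgenic mice, so that transgenic 1 lay within the wild-type range and the other 2 transgenic mice lay above it. For Htr2c it was 1.37, 1.21 and 1.29 in wild-type mice and 2.41, 2.87 and 2.66 in transgenic mice, so Htr2c differed less between genotypes than the marker mean did. The other 7 receptors also stood higher against the marker mean in every transgenic mouse than in any wild-type mouse.

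Within a genotype the receptors did not all follow the choroid plexus markers. Deviations from the genotype mean over the 6 libraries, which share depth and preparation between genes, gave a correlation with the marker mean of -0.46 for Prlr, -0.74 for Lepr and 0.64 for Htr2c. Values were 0.96 for Thra, 0.90 for Igf1r and 0.79 for Nr3c2, and 6 of the 10 were positive, a count that dropped to 3 without wild-type 3. No share over all genes stands beside these correlations, so none is read as particular to a receptor. The correlation of Lepr was 0.97 with the meninges markers, 0.97 with endothelium, 0.90 with microglia, -0.95 with principal neurons and -0.89 with inhibitory neurons, lists picked for it after all were seen. With the meninges markers it was 0.83 for Ghr and 0.72 for Prlr, which were not their strongest correlations. Ghr had -0.95 with principal neurons and Prlr -0.94 with inhibitory neurons, lists also picked after all were seen. Transgenic 1, which was low in Lepr, had the lowest meninges sum (650 CPM against 1177 to 2593 CPM in the other 5 libraries) and the lowest endothelium sum (270 against 295 to 404 CPM). These are descriptions over 6 libraries, and the part of these tissues in the Lepr values was not tested.

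**Figure D5:**
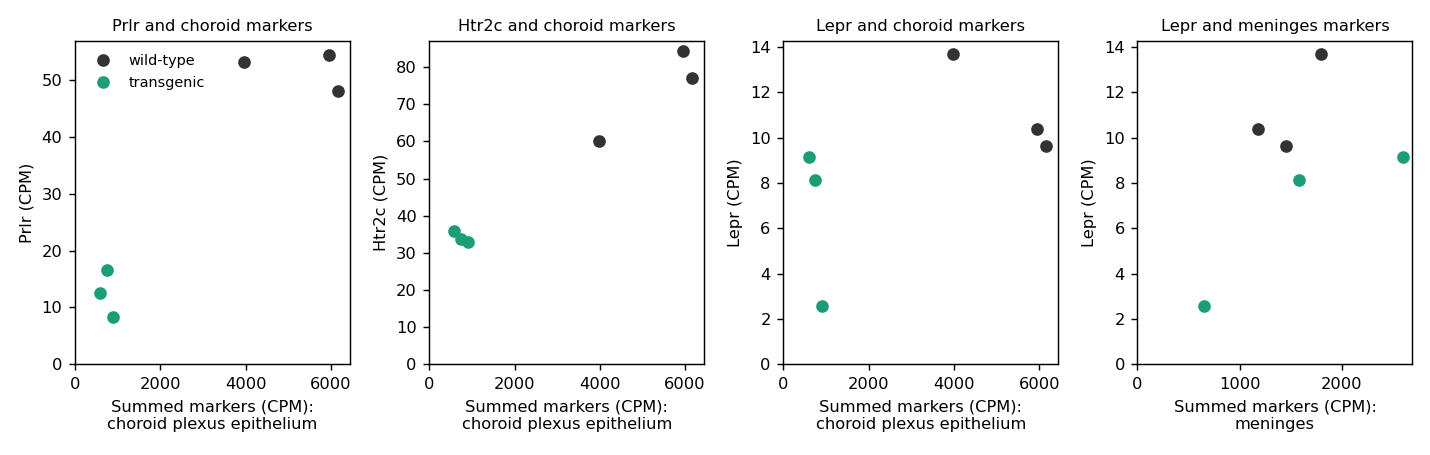
Level of Prlr, Htr2c and Lepr in CPM against the summed CPM of the choroid plexus epithelium markers, and of Lepr against the meninges markers, 1 point per mouse. Choroid plexus sums separate the genotypes (592 to 899 against 3972 to 6171 CPM), while for the meninges the transgenic mice span 650 to 2593 CPM and Lepr is lowest in the mouse with the lowest sum.

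Sums of the other marker lists overlapped between genotypes except for ependyma, the ciliated lining of the ventricles, at 43.9 to 70.9 CPM in wild-type mice against 28.1 to 43.6 CPM in transgenic mice. Its leading marker Foxj1 measured 15.0 ± 3.17 and 9.27 ± 2.39 CPM (SD, n = 3). Microglia summed to 324 to 456 CPM and 320 to 498 CPM, astrocytes to 5249 to 7079 CPM and 5172 to 6406 CPM with Slc1a2, and oligodendrocytes to 4733 to 6381 CPM and 5969 to 6685 CPM with Mbp. Inhibitory neurons summed to 963 to 1137 CPM and 857 to 1079 CPM with Gad1, and thalamus, a neighbouring tissue, to 245 to 263 CPM and 219 to 264 CPM with Ptpn3. Ptgds was the highest meninges marker and Flt1 the highest endothelium marker. Outside the choroid plexus list, 3 markers passed the edgeR threshold, named after their values were seen: Cldn5 of the endothelium rose, and Gad2 and Reln of inhibitory neurons fell. The part of these cell types in the receptor values was not tested.

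The genes most like a receptor over the 6 libraries were sought among 14225 genes by Pearson correlation of log2 CPM, a measure that includes the difference between genotypes. Among the 5 nearest to Prlr were Gpr22, Pcdh17, Slc12a2 and Cwf19l2, with r from 0.997 to 0.998. Slc12a2, which encodes a sodium, potassium and chloride cotransporter, measured 137 ± 2.26 CPM in wild-type mice against 90.3 ± 7.29 CPM in transgenic mice (SD, n = 3). The 5 nearest to Htr2c were Cdk17, Gsk3b, Tmem237, Ccdc39 and Setd5, and those nearest to Nr3c2 were Sp2, Gm4202, Plxna2, Chd2 and Slc35g2. None of the 5 nearest genes of any of the 3 receptors was in the choroid plexus marker list. That list holds only 22 genes, and a gene outside it can still be expressed in choroid plexus, so nothing is read from this.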

How the data were processed

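RNA from 3 wild-type and 3 FVB/NJ-Tg(Orai1)Ibd hippocampi was sequenced as poly(A) libraries. The labels call the run paired-end but give the read length in single-read notation, and the counting was run in paired-end mode, so a count is taken here as a fragment. The authors trimmed reads with Trimmomatic and aligned them to mm10 with STAR (submitters' processing notes), and deposited raw counts per gene from featureCounts 1.5.0-p1, with Ensembl 95 genes on GRCm38, reverse-strand counting (setting 2) and a mapping quality of at least 3. Totals were 37414241 to 52497799 counts. The table also gives exonic lengths, which were used here for FPKM.

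Counts were tested with edgeR 4.0.16 (R 4.3.3), quasi-likelihood, filterByExpr with a minimum count of 10 (19087 genes), TMM scaling, genotype as the only term and Benjamini-Hochberg adjustment over all tested genes at 0.05. CPM use TMM-scaled totals. Alternatives were DESeq2 1.42.0, limma-voom 3.58.1, other scaling, no filter, a replicate block, offsets for a loess trend with GC content, and each library left out. Scripts were tested on simulated data. With 3 against 3 mice an exact permutation test cannot go below p = 0.1, so none was run.

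Symbols matched 54723 genes. Promoters came from RefSeq. The receptors, lists and tests were chosen with earlier results of these data known. Named were all receptors, ligands, the 4 genes with the largest change in each direction of a list among those that passed, the 3 highest markers of each list and the 5 nearest genes. Where 5 genes of a list fell, the fifth was named after its values were seen. Some genes that this rule names are not reported here.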

Additional observations from a re-analysis of the deposited data

How the results depend on the processing

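Of 150 alternative fold changes of the receptors, 148 kept their sign, 7 moved by over 1 SD between replicates, and 2 reversed, both of Esr1 (-0.026 to 0.39 with 1 library left out, -0.0074 without wild-type 2 and -0.026 without transgenic 2). DESeq2 called 2230 of all genes in place of 1355, 4 of the cytokine, 8 of the serotonin and 5 of the other receptor genes. GC offsets left 412 genes (168 higher and 244 lower, against 591 and 764), 2 receptors and 1 cytokine, 3 insulin, 3 thyroid, 0 steroid and 0 serotonin genes. Over genes, deviations of same-numbered mice correlated at 0.399, -0.357 and 0.388, a mean of 0.143, beside a mean of -0.092 for other pairs. Deviations from a mean of 3 mice depend on each other, so these values cannot settle whether replicate numbers pair the mice. The replicate block left 738 genes (263 higher and 475 lower), 2 steroid and 2 serotonin genes. GC offsets with the replicate block left 474 genes (164 higher and 310 lower), 2 receptors, 2 insulin, 1 steroid and 0 serotonin genes (9 at an unadjusted p under 0.05). Leaving out 1 library gave 77 (11 higher and 66 lower, without wild-type 1) to 1149 genes in all, 2 to 4 receptors, 0 to 2 cytokine, 0 to 4 insulin, 2 to 6 thyroid, 0 to 4 steroid, 0 to 5 serotonin and 0 to 3 other receptor genes, with one mouse fewer behind each fit. Without wild-type 3 and transgenic 2, an alternative chosen after seeing the data, 143 genes passed (19 higher and 124 lower), 1 receptor, 1 insulin, 2 thyroid and 0 cytokine, steroid, serotonin or other receptor genes in edgeR, where 6, 7, 10 and 11 had an unadjusted p under 0.05. The wild-type order kept 10 places in FPKM and 3 in CPM. Positive correlations with the choroid plexus markers numbered 3 to 7. The causes of these shifts were not tested. Esr1 had the fewest counts of the receptors, 105 to 192 per library.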

Other observations

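Of 40 tested receptors for other hormones, 2 rose, 1 fell and 37 did not pass, beside 7.10% of all tested genes that passed, and their median log2 fold change was 0.028. Oxtr, the oxytocin receptor gene, measured 9.34, 8.53 and 10.2 CPM in wild-type mice and 14.9, 15.3 and 13.1 CPM in transgenic mice (log2 fold change 0.62, SE 0.097, edgeR adjusted p = 0.020). Crhr2, a receptor for corticotropin-releasing peptides, measured 8.85, 7.20 and 7.19 CPM and 3.73, 4.22 and 5.16 CPM (log2 fold change -0.83, SE 0.15, edgeR adjusted p = 0.028). Ramp1, a partner that shapes which peptide its receptor binds, rose by 0.34 on the log2 scale (edgeR adjusted p = 0.043). Oxtr and Crhr2 passed with the GC correction and Ramp1 did not (adjusted p = 0.069). None of the 3 passed without wild-type 1, wild-type 2, transgenic 2 or transgenic 3, where 5 to 9 genes of the list had an unadjusted p under 0.05 in edgeR, and 2 passed without transgenic 1.

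Other hormone transcripts of the pituitary were uneven between mice in the way of Prl and Gh, a set of genes chosen after their values were seen. Pomc measured 1.49, 1.47 and 16.8 CPM in wild-type mice and 1.20, 7.39 and 2.03 CPM in transgenic mice. Cga, the shared alpha subunit of glycoprotein hormones, had 10, 3 and 51 counts and 17, 71 and 10 counts. Prl, Gh, Pomc and Cga together summed to 22.7, 12.04 and 89.7 CPM in wild-type mice and 35.5, 134 and 17.6 CPM in transgenic mice, highest in wild-type 3 and transgenic 2.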
